A study of Mus musculus with 2 samples.

Results

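The genes described here are 8 transcription factors that direct the first cell types an embryonic stem cell does not belong to. Cdx2, Elf5, Eomes and Tfap2c act in the trophoblast, and Gata4, Gata6, Sox17 and Foxa2 in the endoderm. They are a list of names, drawn up with earlier results of these data known though by a rule that uses no measured value, and are 8 of 21887 protein-coding genes with a position in mm10. Each gene was read together with 100 kb on either side, called its window. ChIP-seq for H3K9me3, the trimethylated form of lysine 9 on histone H3, had been run on E14TG2a.4, a male mouse embryonic stem cell line of strain 129/Ola from an embryo of 3.5 days. There was 1 group of 2 biological replicates, each from a biosample of its own but of 1 donor line. The samples held no second condition, treatment or control library. The values are peak lists made by the authors, so read depth is unknown, and RNA was not measured, so the identity of the cells could not be checked from their markers. Because there was 1 group, no test between samples was possible, and all values are descriptions with the spread of both replicates.

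Lists on 2 genome builds were used. In mm10 each replicate has its own list of narrow peaks (median width 289 bp for replicate 1, 310 bp for replicate 2). The pooled list of the authors uses both replicates' alignments together, and their replicated list derives from the pooled and the single lists. In mm9 each replicate has a list of wide regions, with median widths of 4000 and 3600 bp. Bases covered in both mm9 lists are called shared regions. Fold enrichment is the height of a peak as the authors gave it.

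In the blastocyst, the outer trophectoderm forms the placenta and the primitive endoderm forms the yolk sac. Cdx2 and Eomes maintain trophoblast identity together with Elf5 and Tfap2c, while Gata6 and then Gata4 and Sox17 set up the primitive endoderm. Foxa2 and Sox17 act again in the definitive endoderm that forms the gut. In embryonic stem cells developmental regulators of this kind are known as targets of Polycomb repression and its mark H3K27me3, and Elf5 as a gene held off by DNA methylation of its promoter. H3K9me3 is a mark of silent chromatin, best known in stem cells for its place on retroviral repeats.

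The start sites of these genes differ in their content of CpG, the dinucleotide at which mammalian DNA is methylated, and 4 promoters are shown because the results turn on start sites. They are the 250 bases before the outermost RefSeq start (GRCm38.p6, that is mm10), 5′ to 3′ on the gene's strand, with each CpG in capitals. Cdx2 is at chr5:147307250-147307499 on the minus strand, Elf5 at chr2:103411848-103412097 on the plus strand, Eomes at chr9:118477939-118478188 on the plus strand and Foxa2 at chr2:148046970-148047219 on the minus strand.
Cdx2: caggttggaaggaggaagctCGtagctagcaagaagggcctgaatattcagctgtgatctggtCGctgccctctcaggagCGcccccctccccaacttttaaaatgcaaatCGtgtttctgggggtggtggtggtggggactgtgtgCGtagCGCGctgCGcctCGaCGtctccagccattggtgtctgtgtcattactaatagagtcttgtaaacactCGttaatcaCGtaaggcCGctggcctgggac
Elf5: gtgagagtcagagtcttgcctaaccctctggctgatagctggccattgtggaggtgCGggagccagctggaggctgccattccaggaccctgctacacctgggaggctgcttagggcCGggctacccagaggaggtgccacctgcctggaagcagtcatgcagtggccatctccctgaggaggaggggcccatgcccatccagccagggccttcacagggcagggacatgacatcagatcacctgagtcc
Eomes: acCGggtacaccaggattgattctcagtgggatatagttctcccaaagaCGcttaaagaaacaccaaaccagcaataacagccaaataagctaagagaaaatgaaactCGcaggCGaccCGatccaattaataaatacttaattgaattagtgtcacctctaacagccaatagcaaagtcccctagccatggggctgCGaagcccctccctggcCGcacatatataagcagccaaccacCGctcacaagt
Foxa2: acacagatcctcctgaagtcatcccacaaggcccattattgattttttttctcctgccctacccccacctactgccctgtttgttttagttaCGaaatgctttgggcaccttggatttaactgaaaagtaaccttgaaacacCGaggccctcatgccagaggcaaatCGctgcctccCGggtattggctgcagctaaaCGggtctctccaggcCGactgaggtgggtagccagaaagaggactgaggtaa
Cdx2 has 13 CpG in these bases, Eomes 8, Foxa2 6 and Elf5 2, against a median of 10 over 21263 RefSeq starts of protein-coding genes. The motif CG reads the same on both strands, and 93.4% of those promoters hold at least 1. As many CpG as Elf5 or more were found in 84.9% of them, and as many as Cdx2 or more in 42.4%. The promoter table matched 4 of the 8 genes, and Tfap2c, Gata4, Gata6 and Sox17 were not in it.

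The sequence of marked DNA near these genes was of more than 1 kind. The middle 300 bases of 3 shared mm9 regions are shown on the plus strand, with CpG in capitals. They were taken as the nearest shared mm9 regions to Tfap2c and to Foxa2 and the strongest in the Sox17 window. They lie at chr2:172365451-172365750, chr2:147877351-147877650 and chr1:4547551-4547850 in mm9, all outside protein-coding genes of GENCODE M1.
Near Tfap2c: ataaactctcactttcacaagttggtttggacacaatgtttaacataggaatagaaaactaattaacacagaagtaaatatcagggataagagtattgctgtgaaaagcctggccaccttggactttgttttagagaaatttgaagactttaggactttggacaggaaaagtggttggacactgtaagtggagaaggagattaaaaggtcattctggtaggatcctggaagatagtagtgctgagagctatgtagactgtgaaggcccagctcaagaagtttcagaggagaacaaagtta
Near Foxa2: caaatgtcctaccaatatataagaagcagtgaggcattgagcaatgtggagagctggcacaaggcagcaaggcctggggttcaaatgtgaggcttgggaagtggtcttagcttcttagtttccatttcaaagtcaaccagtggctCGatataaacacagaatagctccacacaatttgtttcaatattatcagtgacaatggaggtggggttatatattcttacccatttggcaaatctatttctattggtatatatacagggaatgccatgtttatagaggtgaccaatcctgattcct
Near Sox17: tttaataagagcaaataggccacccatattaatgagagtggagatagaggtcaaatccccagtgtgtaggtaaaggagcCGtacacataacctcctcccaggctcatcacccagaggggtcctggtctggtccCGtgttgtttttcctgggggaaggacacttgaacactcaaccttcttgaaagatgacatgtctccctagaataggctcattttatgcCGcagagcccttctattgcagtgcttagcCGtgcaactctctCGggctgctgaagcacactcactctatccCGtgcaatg
They hold 0, 1 and 6 CpG. High-copy sequence was measured as the share of bases at which a 16-mer starts that occurs 50 times or more in mm9. It made up 2.17% of the whole region near Tfap2c, 6.82% of that near Foxa2 and 80.0% of that near Sox17.

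None of the 8 genes had H3K9me3 at a promoter in mm9. A promoter was 1 kb on either side of any transcript start in GENCODE M1, and 1 bp of a shared region in it was enough. Of 22367 protein-coding genes 5.54% had such a region, so most genes are without one too. Neither replicate had a region at any of the 8 promoters on its own, where 6.33% of genes had one in replicate 1 and 7.83% in replicate 2. The list of the whole series, the third in mm9, gave 0 as well, against 8.47%. At 2.5 kb on either side the count of shared regions was 0, against 9.08%, and at 5 kb it was 1, Foxa2, against 15.0%. It was also 0 at the 5′ end of the gene alone (3.84% of all genes), with an overlap of at least 200 bp (5.05%) and at a fold enrichment of 4 or more in each replicate (1.82%). These last settings are narrower than the first, so they could only give 0 once it did.

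The nearest shared mm9 region lay 3.7 kb from a Foxa2 start, 8.27 kb from Gata4 and 8.89 kb from Tfap2c. It lay 52.24 kb from Sox17, 54.31 kb from Elf5 and 95.85 kb from Cdx2. For Eomes it was 119.42 kb away and for Gata6 122.49 kb. The genes therefore fell into 3 with a region within 10 kb and 5 with none within 50 kb. The median was 53.3 kb, against 26.95 kb over all protein-coding genes, whose quartiles were 9.46 and 66.6 kb. Cdx2 and Elf5 had the same distance in each replicate alone. For Eomes it was 119.42 kb in replicate 1 and 118.22 kb in replicate 2, for Tfap2c 8.69 and 8.89 kb, for Sox17 52.24 and 50.04 kb and for Foxa2 3.7 and 3.5 kb. Only Gata4 and Gata6 differed more between the replicates. Replicate 2 had a region of 1000 bp inside Gata4, at a fold enrichment of 2.88, which lay 2.04 kb from a start site, while the nearest in replicate 1 was 8.27 kb away. For Gata6 the distance was 84.49 kb in replicate 2 and 122.49 kb in replicate 1.

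Narrow mm10 peaks came closer, but within 1 kb of a 5′ end not in both replicates at the same place. The 5′ end of each RefSeq gene was used, with strand from GENCODE M1, a comparison chosen after the data were seen. None of the 8 genes had a replicated peak within 1 kb of the 5′ end, against 5.24% of 18107 protein-coding genes. Replicate 1 alone had a peak there at 3 genes, Gata4, Gata6 and Foxa2, against 5.83% of all genes. Replicate 2 alone had one at Gata4, Sox17 and Foxa2, against 7.54%. The pooled list had one at 3 as well, Gata4, Sox17 and Foxa2, against 8.07%. No base within 1 kb of any of these 5′ ends was covered in both replicates, which 3.78% of all genes showed. At the RefSeq starts of the 4 genes that have one in the promoter table, the replicated list gave 0, against 5.89% of 17492 genes. Foxa2 alone was reached there by the pooled list (8.94% of all genes), by replicate 1 (6.53%) and by replicate 2 (8.27%).

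All 6 of these peaks of single replicates were at endoderm regulators, at fold enrichments of 2.34 to 3.64. The one in replicate 1 at Gata4, which encodes a zinc finger factor of endoderm and heart, ended 11 bp from the 5′ end, with a fold enrichment of 3.64 and a −log10 q of 3.57. In replicate 2 the nearest Gata4 peak was 885 bp away, with 2.60 and a −log10 q of 1.81. At Foxa2, which encodes a forkhead pioneer factor, the peaks lay 616 bp upstream in replicate 1, at 2.86 and a −log10 q of 1.82, and 888 bp upstream in replicate 2, at 3.01 and a −log10 q of 2.31, and did not overlap. Gata6 had one 950 bp upstream in replicate 1, at 2.34 and a −log10 q of 0.867, and none nearer than 5.41 kb in replicate 2. Sox17, which encodes an HMG box factor, had one 266 bp inside the gene in replicate 2, at 3.01 and a −log10 q of 2.31, and none nearer than 5.18 kb in replicate 1. Among the trophoblast genes the closest was Cdx2 in replicate 2, at 1.66 kb and a fold enrichment of 3.28, just outside the limit, while Gata6 in replicate 1 was just inside it. In replicate 1 only the Gata4 peak, and in replicate 2 only those at Sox17 and Foxa2, had a −log10 q of at least 2. Read depth was unknown, so the counting error of such a peak could not be given.

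**Figure D1:**
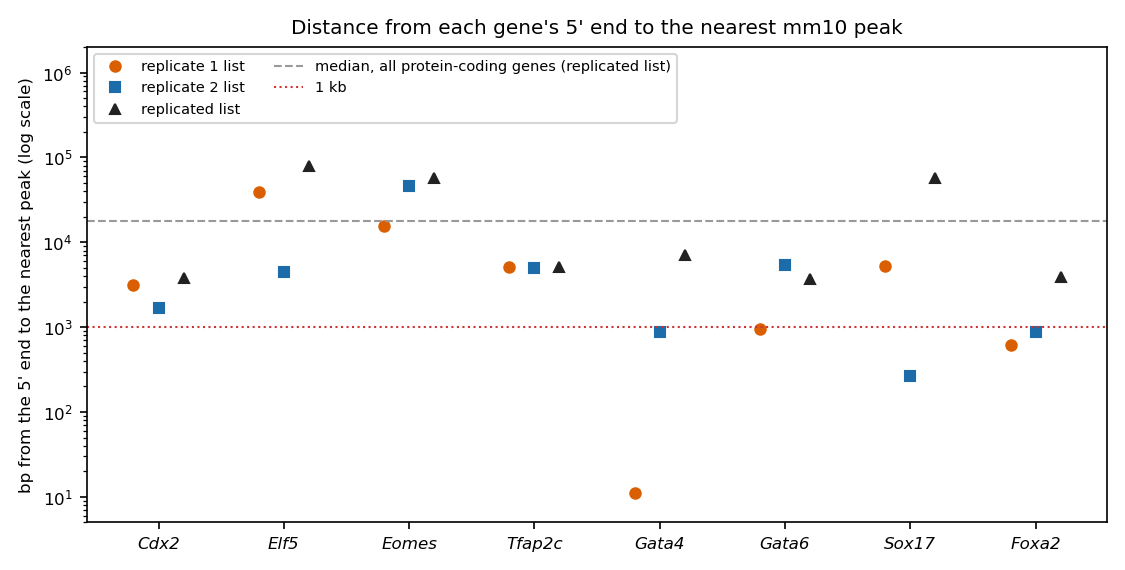
Distance in bp, on a log scale, from the 5′ end of each of the 8 genes to the nearest mm10 peak in replicate 1 (circles), replicate 2 (squares) and the replicated list (triangles). Dashed, the median over 18107 protein-coding genes for the replicated list, 17.96 kb, and dotted, 1 kb. Circles or squares fall below 1 kb only at Gata4, Gata6, Sox17 and Foxa2, and no triangle does.

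The share of gene bodies touched was near that of all genes, most of which are also without a peak. In mm10, 2 of the 8 bodies were touched by a replicated peak, Gata4 and Gata6, against 30.8% of all protein-coding genes. At a fold enrichment of 4 or more only Gata4 was left, against 22.7%. Gata4, the longest of the 8 at 72.8 kb (chr14:63198914-63271712), had 3 replicated peaks that covered 2.10% of its body. Coverage of Gata4 was 1.93% in replicate 1, 2.54% in replicate 2 and 4.33% in the pooled list. The peaks lay 7.12, 14.65 and 60.85 kb into the gene. The one at 60.85 kb was the strongest, with 4.42 in replicate 1 and 4.31 in replicate 2, so that both replicates gave the same height there. The one at 14.65 kb had 3.08 and 5.19, and the one at 7.12 kb had no peak of either replicate under it.

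Gata6 (chr18:11052510-11085636) was covered over 1.27% by 1 replicated peak of 420 bp, 3.86 kb into the gene. Replicate 1 covered 1.01% of Gata6 and replicate 2 covered 0%, so only replicate 1 had a called peak of its own there. The other 6 bodies had no replicated peak. Replicate 2 alone had 1 peak in Elf5, over 0.527% of the body, and 1 in Sox17, over 3.02%. The pooled list had 2 in Cdx2, over 5.76%. By single lists, 2 bodies were touched in replicate 1 (34.1% of all genes) and 3 in replicate 2 (35.9%). The pooled list thus touched 4 bodies, against 38.0% of all genes. In mm9 no member body held a shared region, against 20.7% of all genes, and none held a region of replicate 1, against 21.5%. Gata4 alone was touched by replicate 2 (25.2% of all genes), over 1.37% of its body, and by the list of the whole series (26.7%), over 1.65%. Longer genes have more room for a peak, and the bodies of the 8 genes run from 4.09 to 72.8 kb.

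Around the bodies, 5 of the 8 genes had a replicated peak within 10 kb, against 52.7% of all genes. These were Gata4 and Gata6 at 0 kb, Cdx2 at 3.776 kb, Foxa2 at 3.85 kb and Tfap2c at 5.06 kb. The remaining 3 stood far apart from them, Sox17 at 50.03 kb, Elf5 at 52.44 kb and Eomes at 55.34 kb, and 83.3%, 84.0% and 84.9% of protein-coding genes were nearer to a peak than these. The median over the 8 was 4.46 kb, against 8.54 kb over all genes. At a fold enrichment of 4 or more this direction turned, with 61.9 kb against 18.3 kb over all genes. The median was 0.42 kb in the pooled list, against 4.21 kb, and 1.28 kb in replicate 2 alone, against 5.30 kb. All 8 had a replicated peak within 100 kb, as did 92.2% of all genes. At a fold enrichment of 4 or more, 3 had one within 10 kb, Tfap2c, Gata4 and Foxa2, against 39.9%. In each replicate's own list 7 genes had a peak within 10 kb, with Elf5 the exception in replicate 1 and Eomes in replicate 2, against 56.4% and 59.6% of all genes. In the pooled list 7 had one, all but Elf5, against 62.1%.

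**Figure D2:**
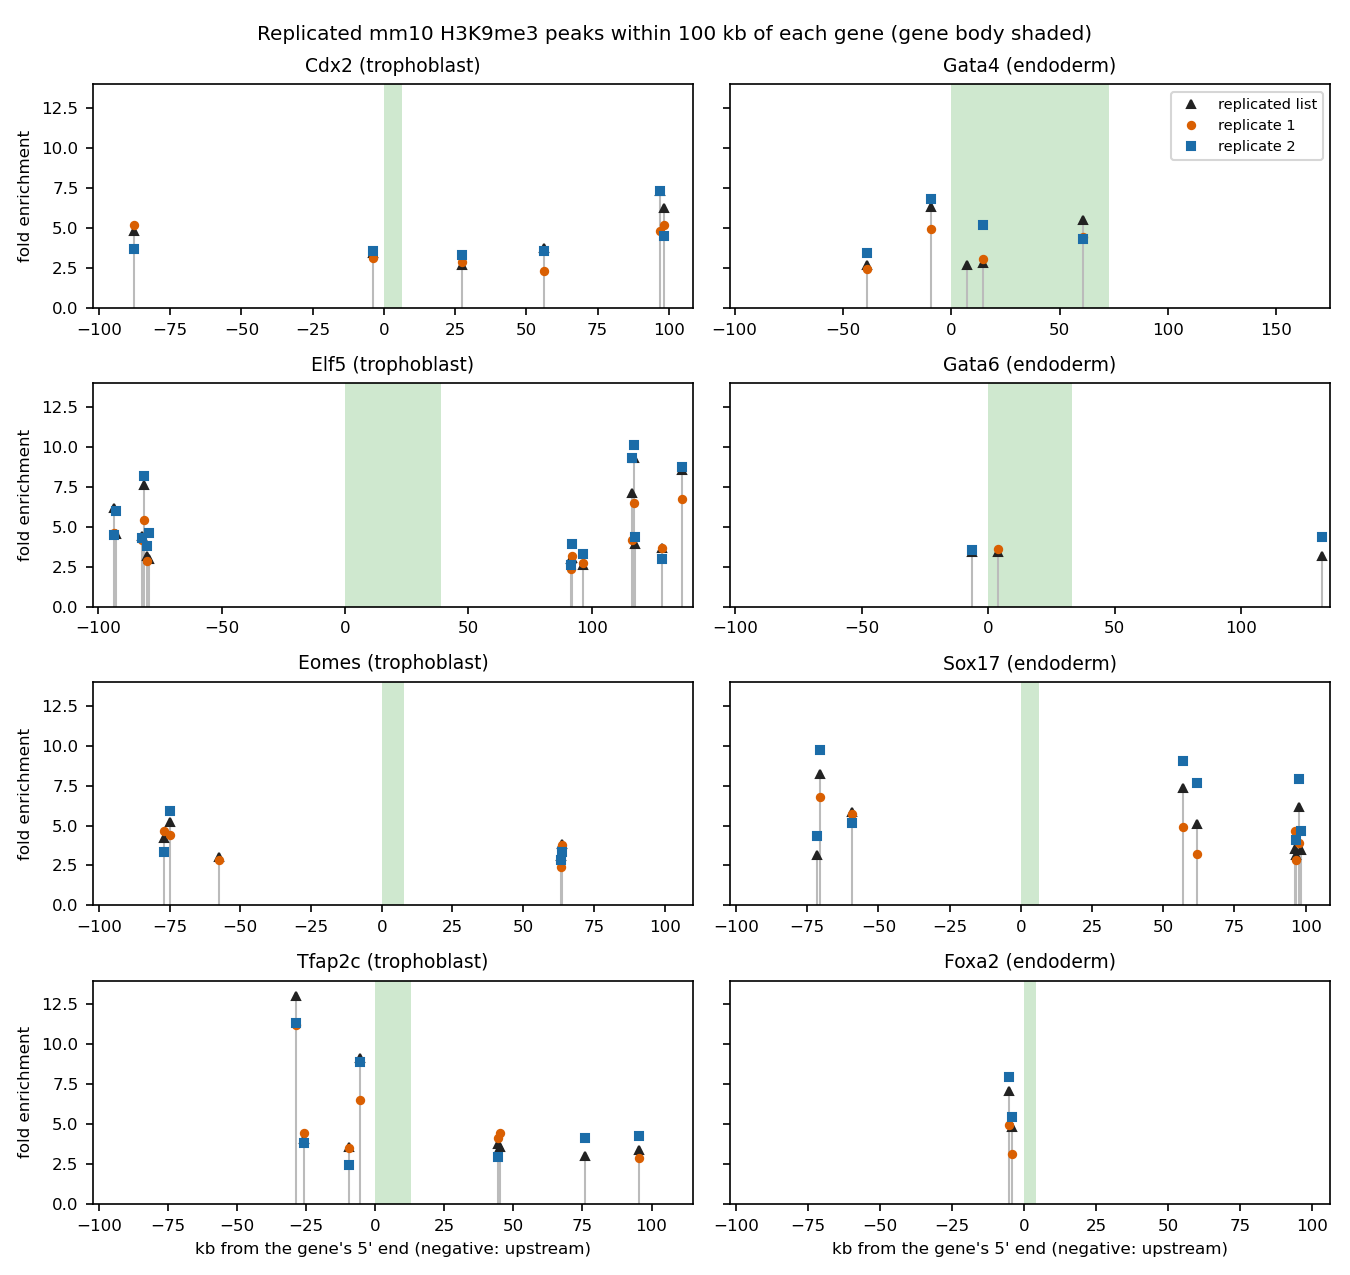
Fold enrichment of every replicated mm10 peak in the 8 windows against its distance in kb from the gene's 5′ end, with the gene body shaded. Triangles give the replicated list, circles and squares the strongest overlapping peak of replicate 1 and replicate 2, and a missing circle or square means no overlapping peak. Shaded bodies hold peaks only at Gata4 and Gata6, and the tallest peak, 13.1, lies upstream of Tfap2c.

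Among the trophoblast regulators, Tfap2c had the strongest mark nearby. Tfap2c (chr2:172545678-172558622 in mm10) encodes the AP-2 gamma factor, which also acts in germ cells. A block of 3800 bp about 28.5 kb upstream had a fold enrichment of 13.1 in the replicated list, with 11.2 in replicate 1 and 11.3 in replicate 2, a mean of 11.2 ± 0.091 (SD, n = 2). It was the highest of all 52 replicated peaks in the 8 windows. A second peak of 1114 bp, 5.62 kb upstream of the 5′ end, had 6.51 and 8.89, a mean of 7.70 ± 1.68. Both replicates held both peaks, at nearly one height at the farther and higher in replicate 2 at the nearer.

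The mm9 lists held only the nearer of these. The shared mm9 region next to Tfap2c, of 1200 bp, had 3.83 in replicate 1 and 5.31 in replicate 2, a mean of 4.57 ± 1.04 (SD, n = 2). Counted from the 3′ end of the gene its middle lay 18.5 kb upstream, and the mm10 peak 18.6 kb upstream, so they sit at the same place on the gene. The distances from the start differ because the annotated gene is 9.03 kb long in mm9, where GENCODE M1 names it Tcfap2c, and 12.94 kb in mm10. Neither replicate had a further mm9 region in the Tfap2c window, so the tallest mm10 peak had no region of the mm9 lists near it. The other 6 replicated peaks of the window had fold enrichments from 3.00 to 4.05.

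Elf5 (chr2:103412098-103450989), an ETS factor of trophoblast stem cells and mammary epithelium, lay in a wide gap between marked blocks of the replicated list. Its window held 14 replicated peaks, the most of the 8, and none lay between 79.6 kb upstream of the start and 91.4 kb downstream of it. Other lists did have peaks inside this span. The nearest to Elf5 in the pooled list lay 17.2 kb upstream, at 2.85, and in replicate 1 38.8 kb upstream, at 3.12. In replicate 2 it lay in the body, at 2.60. Upstream, the tallest peak, at 81.4 kb, had 5.46 in replicate 1 and 8.20 in replicate 2. Downstream, a peak at 116.9 kb had 6.50 and 10.1, and one at 136.6 kb had 6.76 and 8.75. Replicate 2 was higher at all 3 of these, and each was nearest to a protein-coding gene other than Elf5. The replicated list covered 3.57% of the window, 2.10% in replicate 1 and 3.57% in replicate 2. In mm9 the Elf5 window held 5 shared regions, with means from 1.57 ± 0.0875 to 4.05 ± 0.687 (SD, n = 2), again all outside the gene. The nearest other protein-coding gene, Cat for catalase, had no replicated peak on its body.

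Eomes (chr9:118478186-118486132), a T-box factor of trophoblast and mesendoderm, had the least mark in mm9. Its window held no mm9 region in either replicate or in the list of the whole series. In mm10 it held 5 replicated peaks, 3 upstream from 57.7 to 76.9 kb and 2 downstream at 63.4 and 63.8 kb. The downstream pair lies in Golga4, a golgin gene of the Golgi, of which 0.818% was covered. The tallest Eomes peak, 2410 bp wide at 74.9 kb upstream, had 4.38 in replicate 1 and 5.91 in replicate 2, a mean of 5.15 ± 1.08 (SD, n = 2). Replicate 1 covered 1.60% of the window and replicate 2 covered 1.44%.

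Cdx2 (chr5:147300900-147307249), a caudal-type homeobox factor of trophectoderm and later of gut, had 6 replicated peaks in its window. The nearest, 232 bp wide and 3.89 kb upstream, had 3.12 in replicate 1 and 3.55 in replicate 2, a mean of 3.34 ± 0.306 (SD, n = 2). The strongest lay at the far edge, 96.9 kb downstream of the start, with 4.83 and 7.32. Another protein-coding gene was nearer to that peak than Cdx2. An mm9 shared region of 2800 bp, 97.2 kb downstream, was the only one in the Cdx2 window, with 2.74 and 3.06. No mm9 region lay at the peak close to Cdx2. The neighbours Pdx1, a pancreas factor, and Urad had no replicated peak on their bodies, while Flt3, a receptor of blood progenitors, was covered over 0.784%.

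Among the endoderm regulators, Foxa2 (chr2:148042877-148046969) had a compact mark close upstream. A pair of replicated peaks lay 4.3 and 5.4 kb upstream of its 5′ end and no further replicated peak was in its window. The nearer, 909 bp wide, had 3.12 in replicate 1 and 5.47 in replicate 2, a mean of 4.29 ± 1.66 (SD, n = 2). The farther, 1074 bp wide, had 4.94 and 7.93, a mean of 6.43 ± 2.11. In mm9 a single shared region of 2200 bp, centred 4.8 kb upstream, had 2.90 and 4.11, a mean of 3.50 ± 0.849. Foxa2 was the member with the nearest mark seen in both replicates and both builds, and replicate 2 was higher at each peak.

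Gata4 also had a mark upstream that both builds showed. The mm10 peak, 613 bp wide and 9.4 kb upstream, had 4.94 in replicate 1 and 6.83 in replicate 2, a mean of 5.89 ± 1.34 (SD, n = 2). The mm9 shared region of 1400 bp, 9.0 kb upstream, had 3.21 and 4.25, a mean of 3.73 ± 0.733. The Gata4 window held 5 replicated peaks, and none of them lay in the downstream flank. That flank holds Fdft1 and Ctsb, for squalene synthase and cathepsin B, neither touched in the replicated list. In mm9 an intron of Fdft1 held a shared region of 2800 bp, with 2.21 and 2.48, centred 101.7 kb from the Gata4 start.

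Gata6, a zinc finger factor needed for the primitive endoderm, had the lowest coverage of the 8 windows in mm10, though not in mm9. The replicated list held 3 peaks there, at fold enrichments of 3.15 to 3.45, and none of the 3 was overlapped in both replicates. Coverage of the window was 0.407%, with 0.582% in replicate 1 and 0.725% in replicate 2, and 14.8% of protein-coding genes had less in the replicated list. No other protein-coding gene lies in the Gata6 window. The mm9 lists held 2 shared regions there, over 2.75% of the window, 123.6 and 130.0 kb downstream of the start, with means of 2.41 ± 0.469 and 2.32 ± 0.212 (SD, n = 2).

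Sox17 (chr1:4490928-4497426) was flanked at a distance by strong blocks on both sides. Its 9 replicated peaks all lay at least 56.9 kb from the start. Upstream, a peak of 763 bp at 70.5 kb had 6.81 in replicate 1 and 9.76 in replicate 2, a mean of 8.28 ± 2.08 (SD, n = 2). Downstream, one at 56.9 kb had 4.94 and 9.02, a mean of 6.98 ± 2.88. In mm9 the Sox17 window was the most covered of the 8, at 11.3% by 5 shared regions, and the region of 4200 bp printed above had the highest mm9 value of the 8 windows, 6.96 and 8.39, a mean of 7.67 ± 1.01. The farthest downstream mm10 peaks lie in Rp1, a photoreceptor gene of 293.59 kb, which was covered over 4.61%. That share is of the whole gene, which reaches beyond the Sox17 window. Rp1 was also the nearest protein-coding gene to the peak at 56.9 kb.

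Window coverage in mm10 ranged from 0.407% at Gata6 to 3.96% at Tfap2c, with a median of 1.72%. Over all protein-coding genes the median was 2.28% and the quartiles 0.865% and 4.64%. From the lowest, the order was Gata6, Gata4, Foxa2, Cdx2, Eomes, Sox17, Elf5 and Tfap2c. Gata4 had 1.03% in replicate 1 and 1.23% in replicate 2, Foxa2 1.13% and 1.44%, and Cdx2 1.41% and 1.88%. Sox17 had 1.83% and 3.42%, and Tfap2c 3.28% and 4.11%. The ranges of the replicates overlapped between neighbours in this order, except between Gata6 and Gata4 and between Eomes and Sox17. The trophoblast genes had a median of 2.69% and the endoderm genes 0.961%, with Sox17, at 2.60%, above Cdx2 and Eomes. The mm9 shared regions turned this direction, with medians of 0.965% for the trophoblast and 2.14% for the endoderm genes. In mm9 the order was another, with Sox17 at 11.3% and Elf5 at 6.10% highest, then Gata6 at 2.75%, Gata4 at 1.54%, Cdx2 at 1.36%, Foxa2 at 1.08%, Tfap2c at 0.574% and Eomes at 0%. The mm9 median was 1.45%, against 3.93% over all protein-coding genes.

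**Figure D3:**
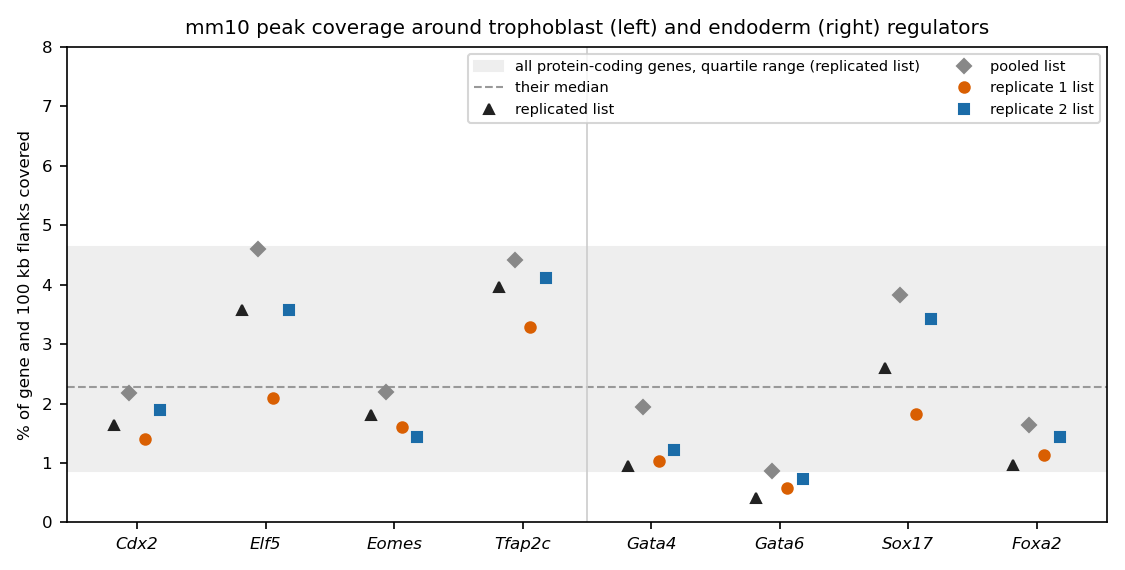
Percent of each gene with 100 kb flanks covered by mm10 peaks, in the replicated, pooled, replicate 1 and replicate 2 lists, for the trophoblast genes on the left and the endoderm genes on the right. The grey band is the quartile range over 21887 protein-coding genes in the replicated list, 0.865% to 4.64%, and the dashed line their median, 2.28%. Tfap2c, Elf5 and Sox17 lie above that median in the replicated list, the other 5 below it.

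By distance from the body, the 8 genes were highest at 5 to 10 kb and lowest at 10 to 25 kb. At 5 to 10 kb, on both sides together, 4.67% of bases were covered in replicate 1 and 4.94% in replicate 2, against 2.70% and 3.68% for all protein-coding genes. In the replicated list the peaks in this class are those just upstream of Tfap2c, Foxa2, Gata4 and Gata6. The one at Gata6 had no replicate 1 peak under it. Replicate 1 also had peaks of its own in this class, as at Eomes and Sox17. At 10 to 25 kb coverage was 0.370% and 0.337%, against 2.86% and 3.94%. At 50 to 100 kb it was 1.79% and 3.02%, against 2.80% and 3.84%. Within the bodies it was 0.950% and 1.23%, against 1.80% and 2.44%. The trophoblast genes had 4.29% in replicate 1 and 4.22% in replicate 2 at 5 to 10 kb, and the endoderm genes 5.05% and 5.66%. At 25 to 50 kb the trophoblast genes had 2.75% and 2.56% and the endoderm genes 0.424% and 0.592%. At 5 to 10 kb the replicated peaks of the trophoblast genes were all at Tfap2c. At 25 to 50 kb they were at Tfap2c too, the widest of 3800 bp, apart from a Cdx2 peak of 389 bp at the outer edge. Each class rests on 8 genes, and on 4 in each group, so a single peak weighs heavily in it.

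**Figure D4:**
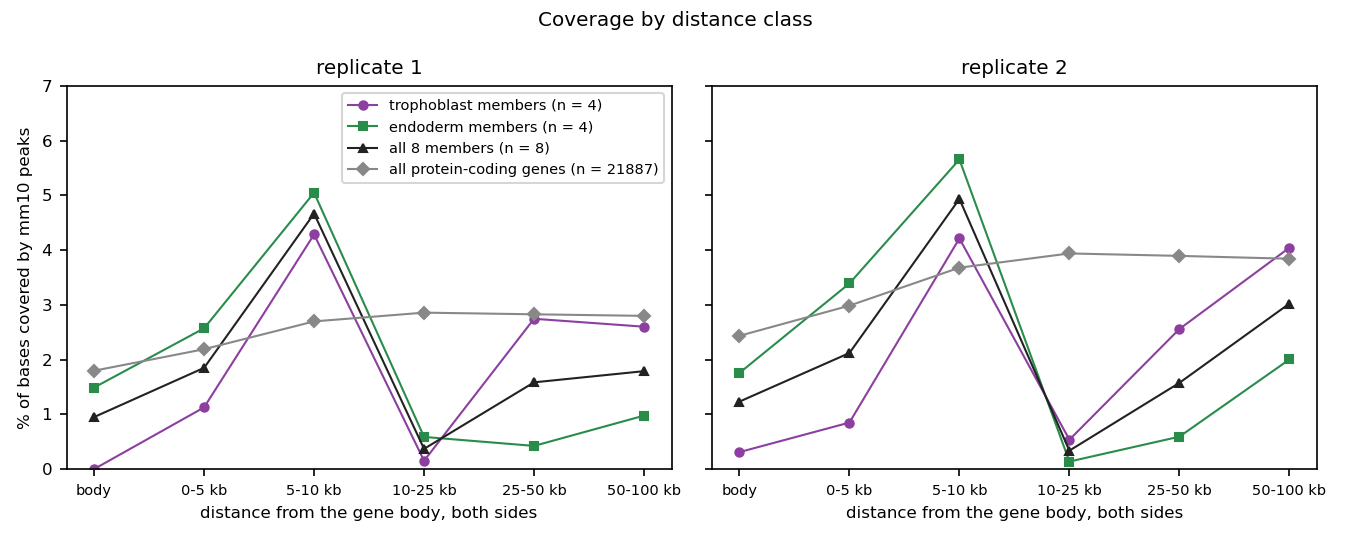
Percent of bases covered by mm10 peaks in the gene bodies and in 5 classes of distance on both sides of them, for replicate 1 and replicate 2. Lines show the 4 trophoblast genes, the 4 endoderm genes, all 8 and 21887 protein-coding genes. In both replicates the lines of the 8 genes and of each group are highest at 5-10 kb and fall under 1% at 10-25 kb.

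In each replicate's own list, sharing was lower around these genes than over the whole list. Of 77 replicate 1 peaks in the windows 46 were overlapped in replicate 2, 59.7%, against 76.1% over the whole list. Of 100 replicate 2 peaks 47 were overlapped in replicate 1, 47.0%, against 53.3%. The difference was not tested. Of the 52 replicated peaks in the windows, 39, which is 75%, had peaks of both replicates under them. A further 8 had one of replicate 2 alone, 4 one of replicate 1 alone and 1 had none. The replicated list derives in part from both replicates' lists, so this share is no measure of agreement. At 28 of the 39 the fold enrichment was higher in replicate 2, whose whole list is also the longer, with 198649 peaks over 100.4 Mb against 161342 over 69.7 Mb. Peaks in the windows had a median fold enrichment of 3.79, against 4.20 for all replicated peaks, and 46.2% reached 4, against 56.5%. Of the 52, 33 were in trophoblast windows and 19 in endoderm windows, 23 lay upstream, 25 downstream and 4 in a member's body. Of all 52, 41 were on no protein-coding gene. The same counts of position over the whole replicated list are not given here.

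Over 1 kb on either side of the gene's 5′ end, 6 of the 8 genes had more CpG than the median. Eomes and Foxa2 were among them, though under the median in the 250 bases before the RefSeq start. Only this end was read, while GENCODE M1 gives Elf5 7 start sites and Gata4 6. Within 1 kb of the 5′ end in mm9, Tfap2c had 64.5 CpG per kb, Eomes 63.5, Cdx2 59.0, Gata6 49.5, Foxa2 47.0 and Sox17 31.0. Gata4 had 13.5 and Elf5 10.99, below the median of 30.5 over protein-coding genes and on either side of the lower quartile of 11.5. The 17 shared mm9 regions in the windows had 9.45 CpG per kb together, against 10.6 in all shared regions and 8.34 over the chromosomes. High-copy sequence made up 51.3% of them, against 51.4% in all shared regions and 18.7% over the chromosomes. Single regions ran from 0.929% near Elf5 to 100% near Sox17, with a median of 42.2%. Within 1 kb of the 5′ end the 8 genes held 1.35% to 4.80% high-copy sequence, around the median of 4.05% for all protein-coding genes. Of the 17 regions 16 lay outside protein-coding genes and 1 in an intron, with the same count over all shared regions not given here.

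Further genes of the same programmes were read from lists that hold none of the 8. Of 20 further trophoblast genes, 10 had a replicated peak on the body and 15 had one within 10 kb, beside 30.8% and 52.7% of all protein-coding genes. The median coverage of their windows was 2.08%. The most covered was Ascl2, an imprinted basic helix-loop-helix factor of the placenta, at 36.8%, with 22.3% in replicate 1 and 57.1% in replicate 2. Cdh3, for P-cadherin, was covered over 14.3%, and Gata2 over 4.95%. In mm9, 2 of the 20 had a shared region at a promoter, beside 5.54% of all protein-coding genes. Fgfr2, the receptor through which FGF4 maintains trophoblast stem cells, had a fold enrichment of 3.97 in replicate 1 and 6.65 in replicate 2, a mean of 5.31 ± 1.89 (SD, n = 2). Tfap2a, a paralogue of Tfap2c, had 3.77 and 4.92, a mean of 4.35 ± 0.815.

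Of 24 further endoderm genes, 6 had a replicated peak on the body, 12 had one within 10 kb and none had a shared mm9 region at a promoter, beside 30.8%, 52.7% and 5.54% of all protein-coding genes. The median coverage of their windows was 2.03%. Lama1, which encodes a laminin chain of the basement membrane made by parietal endoderm, was covered over 16.8%, with 14.1% in replicate 1 and 16.6% in replicate 2. Cubn, for the uptake receptor cubilin of visceral endoderm, was covered over 2.01%, and Dab2, an endocytic adaptor, over 1.28%. Of 6 stem cell markers none had a shared region at a promoter, and of 6 fibroblast markers, which feeder cells would express, 2 had one, Lum and S100a4, beside 5.54% of all protein-coding genes.

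By coverage of the window in the 2 replicates, the gene of those lists most like a member was Id2 for Cdx2, Pdgfra for Elf5 and for Sox17, Dlx3 for Eomes and Hhex for Tfap2c. For Gata4 it was Arid3a and for Foxa2 Gcm1. Over these 7 members, the summed difference over both replicates was smallest for Cdx2 and Id2, at 0.0363 percentage points, and largest for Sox17 and Pdgfra, at 0.465. The window of Id2 was covered over 1.39% in replicate 1 and 1.86% in replicate 2, beside 1.41% and 1.88% for that of Cdx2. Likeness in 2 values says nothing of where in the window the peaks lie.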

How the data were processed

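H3K9me3 was mapped in 2 replicates of 1 group. Fold enrichment is a ratio that the authors deposited per peak, with its reference, peak caller, aligner and versions not given in the sources used here. Peaks were called separately in each replicate, so a mean ± SD describes the strongest peak of each. The mm10 lists also hold −log10 p and −log10 q, and the mm9 lists linear p-values and q-values, as deposited by the authors. Per the deposited file records, alignments of both replicates gave the pooled mm10 list, which with the lists of single samples gave the replicated list.

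Chromosomes 1 to 19, X and Y were used. Overlapping peaks were merged before coverage was measured, a touch meant at least 1 bp, and no coordinates were converted between builds. Gene positions came from RefSeq (GRCm38.p6) in mm10 and GENCODE M1 in mm9. All 8 genes matched in both, Tfap2c through its older name. No test was made. Alternatives were other lists, flanks, promoter widths, fold enrichment and q limits, and each replicate left out. The distance and coverage code was tested on simulated data. Python 3.11.15, pandas 2.3.3 and NumPy 2.4.6 were used.

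The members and lists were chosen with earlier results of these data known. The rule for named genes took the 8 members, further listed genes with a promoter region in both replicates, the 3 most covered bodies of each list, the most alike gene (for 1 member not reported here), neighbours, and the nearest and strongest peak of each member. Lum, S100a4, Pdx1, Ctsb and the other peaks described were chosen after their values were seen.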

Additional observations from a re-analysis of the deposited data

How the results depend on the processing

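The absence of a shared mm9 region at the 8 promoters held at 2.5 kb, in the mm9 list of the whole series and without either replicate. The 5′ end only, at least 200 bp, and 4-fold or more in each replicate are narrower settings, which could only give 0. The count became 1 at 5 kb, and 3 with pooled mm10 peaks within 1 kb of the 5′ end, a setting chosen after seeing the data. Replicated mm10 peaks gave 0, both at the 5′ end of the 8 genes and at the RefSeq starts of 4, also chosen afterwards. Bodies touched were 4 with the pooled list, 1 at a fold enrichment of at least 4, and 2 to 3 with a replicate left out. Genes with a peak within 10 kb were 3 at that fold enrichment, and 7 in the pooled list and with either replicate left out. The median distance of 4.46 kb became 0.42 kb with the pooled list and 61.9 kb at that fold enrichment, where all genes had 18.3 kb, and ran from 1.28 to 4.11 kb with a replicate left out. Median window coverage of 1.72% was 0.643% with 50 kb flanks, 2.69% with 200 kb flanks, 2.18% with the pooled list and 1.26% at that fold enrichment, and ran from 1.50% to 1.66% with a replicate left out. Of 40 single-gene distances under these settings, 25 did not move or moved by less than the replicate spread, and 15 moved by more. The limit of 2 on −log10 q could move no distance, because every replicated peak in the windows had at least 2.93. Its unmoved distances are among the 25. The lists with a replicate left out also set the spread, so this count does not measure stability. The cause of the differences between settings was not tested. Depth is unknown, so a weak peak in 1 replicate cannot be weighed against its reads.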
